A study of Mus musculus with 18 samples.

Results

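Open chromatin away from promoters was read from one deposited list of 16307 ATAC-seq peaks, stretches of DNA that a transposase cut more often than the background. A peak was kept as a distal region when its midpoint lay more than 2 kb from every transcription start site (TSS) of a protein-coding gene in GENCODE M21, on mouse build GRCm38. Of the 16169 peaks on chromosomes 1 to 19, X and Y, 7928 were distal and 8241 promoter-proximal, and 138 peaks on other sequences were left out. The list is assigned to mature neutrophils (matNeu), but the list given for neutrophil precursors (preNeu) holds the same peaks, so the stage of the open chromatin is not settled. All 16307 peak names in both copies contain the word Neutrophile, as do all 44094 names of the matNeu H3K4me2 list and none of the preNeu one. Distal regions were therefore set against stage-specific data of other kinds: H3K4me2, a histone mark of promoters and enhancers, in 3 stages, CHD4, the ATPase of the nucleosome remodeling and deacetylase complex (NuRD), in 2 genotypes, and RNA in 3 stages.

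Neutrophils arise in bone marrow from granulocyte-monocyte progenitors (GMP) through proliferating preNeu cells. GFI1 is a transcriptional repressor needed for this lineage, and it associates with CHD4. The study sorted GMP, preNeu and matNeu cells from bone marrow of adult C57BL/6 mice aged 6 to 12 weeks. H3K4me2 was profiled by ChIP-seq with 1 library per stage, CHD4 in GMP of wild-type and *Gfi1*-/- mice with 1 library each, and RNA in 3 libraries per stage. ChIP and ATAC peaks carry a fold enrichment over background from the peak caller, given below as fold. RNA values are TPM, the share of transcripts scaled to a sum of 1000000 per library. Because each peak list stands for 1 library, intervals on shares of peaks are 95% Wilson intervals that hold counting error only. By their titles the ATAC and H3K4me2 libraries are of wild-type mice. None of the 9 RNA libraries is labelled *Gfi1*-/-, so the deletion cannot be checked from the libraries used.

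Distal regions were narrower, weaker and poorer in CpG than promoter-proximal peaks. Their median width was 374 bp against 578 bp, median fold 3.12 against 4.24, GC content 49.4% against 65.5%, and CpG density 10.4 against 87.4 per kb. The distal folds ran from 1.13 to 17.2, and the median distance to the nearest TSS was 28.1 kb. Most regions lay in intergenic DNA (3787, 47.8%, interval 46.7 to 48.9) or in introns of protein-coding genes (3142, 39.6%, 38.6 to 40.7). A further 809 (10.2%) lay in or within 250 bp of a gene outside the protein-coding class, such as a non-coding gene, pseudogene or immunoglobulin segment, 438 of them at lincRNAs alone and 12 at immunoglobulin variable genes alone. Few fell in 3′ untranslated sequence (94), coding exons (91) or 5′ untranslated sequence (5). Regions lay upstream of the nearest TSS in 3768 cases (47.5%) and downstream in 4160 (52.5%). In 2816 of the 3142 intronic regions (89.6%) the host gene also had the nearest TSS. In 7801 regions (98.4%) the whole peak was beyond 2 kb. The boundary itself separated similar peaks: of 202 regions at 2.0 to 2.5 kb, 84.2% overlapped H3K4me2 of matNeu and 33.7% CHD4 of wild type, and of 203 promoter-proximal peaks at 1.5 to 2.0 kb, 77.8% and 36.5% did. The distal region closest to the boundary lay 2001 bp from *Fgd3*, and the proximal peak closest to it lay 1999 bp from *Marcks*.

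H3K4me2 overlapped about as many distal regions in preNeu as in matNeu, and far fewer in GMP. The counts were 2141 of 7928 in GMP (27.0%, 26.0 to 28.0), 3993 in preNeu (50.4%, 49.3 to 51.5) and 4065 in matNeu (51.3%, 50.2 to 52.4). Promoter-proximal peaks overlapped the same lists in 91.5%, 97.96% and 97.96% of cases, so the distal shares were lower by 64.5, 47.6 and 46.7 percentage points. A region that carried the mark in an earlier stage nearly always carried it in the next: 2110 of 2141 regions marked in GMP (98.6%) were marked in preNeu, and 3951 of 3993 marked in preNeu (98.9%) were marked in matNeu. Gains were placed mostly between GMP and preNeu. Of 5787 regions without the mark in GMP, 1883 (32.5%) had it in preNeu, while 114 of 3935 without it in preNeu (2.90%) had it in matNeu. The 3 lists differ in strength, which moves with these shares: their median folds were 2.89, 4.55 and 3.78, and they covered 49.8, 97.9 and 80.4 Mb in GMP, preNeu and matNeu. When each list was limited to its best peaks covering 49.8 Mb, 37643 peaks remained in GMP, 12177 in preNeu and 15133 in matNeu. The share was then 23.0% in preNeu and 29.6% in matNeu, so that preNeu was below the 27.0% of GMP. With each list limited to its best 37643 peaks instead, the preNeu and matNeu shares stayed within their intervals above, and preNeu stayed above GMP. The order of GMP and preNeu thus depends on how the lists are matched, and a true gain between these stages was not tested. With -log10 q of at least 5 in every list the shares were 6.93%, 75.3% and 70.8%, and without the sequence features described below 41.7%, 77.8% and 78.1%. Where a distal region overlapped a marked peak, the mark was weaker than at promoters in each stage, with median folds of 2.91 against 3.59 in GMP, 7.83 against 10.8 in preNeu and 5.62 against 8.60 in matNeu.

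Over the stages, distal regions fell into 3 large groups. The mark was present in all stages at 2107 regions (26.6%), in preNeu and matNeu but not GMP at 1844 (23.3%), and in no stage at 3798 (47.9%). The other patterns were rare, with 106 regions marked in matNeu alone, 39 in preNeu alone, 23 in GMP alone, 8 in GMP and matNeu, and 3 in GMP and preNeu. Among promoter-proximal peaks the 3 large groups held 91.2%, 6.58% and 1.69%. Regions marked in all stages were wider (447 bp) and richer in CpG (17.8 per kb) than regions marked from preNeu on (332 bp and 10.9 per kb), and their nearest TSS lay 14.2 kb away against 16.7 kb. Unmarked regions were the most remote, at a median of 68.3 kb. The share marked in any stage was lower at greater distance, from 77.2% of 976 regions at 2 to 5 kb through 61.7% of 2906 at 10 to 50 kb to 19.9% of 1963 beyond 100 kb.

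Unmarked regions differed from marked ones in sequence as well. A region was said to have a sequence feature when it matched several places on chromosomes 1 to 19, X and Y at 98% identity or more, was soft-masked as repeat over at least 90% of its length, or was at least 50% made of words repeated within it. Such features were present in 2985 distal regions (37.7%) and 158 promoter-proximal peaks (1.92%). Of the unmarked regions 72.5% had one, against 2.85% of those marked in all stages and 4.39% of those marked from preNeu on. Among the 4943 distal regions without a feature, 78.9% carried H3K4me2 in some stage, and among the 2985 with one, 7.74% did. Features also became more common with distance, from 17.8% at 2 to 5 kb to 61.3% beyond 100 kb, so remoteness and repeated sequence moved together. Whether short reads were placed correctly in such regions was not tested, as sequencing reads were not used here.

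The strength of the ATAC peak followed the mark. With distal regions ranked into 10 groups by fold, the share marked in any stage was 9.21% in the weakest group (fold up to 2.75) and 88.3% in the strongest (fold 4.45 to 17.2). The share overlapping CHD4 of wild type went from 5.17% to 44.1%, and the share with a sequence feature from 82.2% to 16.3%. Promoter-proximal peaks ranked in the same way went from 87.2% to 99.9% marked, but from 17.7% down to 6.07% with CHD4. Away from promoters CHD4 was thus most common at strong ATAC peaks, and near promoters at weak ones.

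The 10 distal regions with the highest fold were mostly not typical of the rest. The first, chr1:24611539-24616155 (fold 17.2, 4617 bp), is 99.96% identical to mitochondrial DNA over its whole length and was marked in matNeu alone, at fold 4.07. The fifth, an intergenic region nearest *Galc* (chr12:97061434-97061909, fold 12.3), is 75.4% mitochondrial-like. Likeness to mitochondrial DNA is not among the sequence features above, and how reads were shared between these regions and that DNA was not tested. The regions near *Thsd7b*, *Zfp804a*, *Naaladl2* and *Insig1* (fold 11.3, 9.71, 9.56 and 9.08) were wholly soft-masked and unmarked. The third, chr3:92552881-92553300 (fold 14.6), was wholly masked too and matched 169 places in the genome. Among the rest, the region 43.0 kb upstream of *Chd7*, a chromatin remodeler gene, stood out as unique sequence (chr4:8647114-8647691, fold 12.8). It had 75.4% GC, carried H3K4me2 in all stages (fold 4.06, 14.1 and 10.5) and had no CHD4 peak. A second such region, nearest *Foxk1* (chr5:142367127-142367847, fold 9.004), had 63.9% GC and the mark in all stages (3.90, 11.8 and 7.54). The second-ranked region (chr12:113424111-113425441, fold 14.6) lies at a microRNA gene inside the immunoglobulin heavy-chain locus, between *Ighm* and the joining segments, was 91.2% repeated within and was marked in all stages. The window of the *Chd7* region below is shown because it is the strongest distal region of unique sequence. Capitals mark matches to the GC box GGGCGG, chr4:8647303-8647502, plus strand, GRCm38, intergenic.
Chd7: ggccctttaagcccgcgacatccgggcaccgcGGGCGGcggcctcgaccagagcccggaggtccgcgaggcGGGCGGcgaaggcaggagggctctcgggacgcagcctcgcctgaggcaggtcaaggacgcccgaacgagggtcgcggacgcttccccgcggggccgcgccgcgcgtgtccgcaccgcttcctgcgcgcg
The center of the *Insig1* region, also intergenic, is shown as an example of a strong, unmarked peak in tandem repeat. Its capitals mark 174 bases that are repeated within the window, chr5:28098970-28099169, plus strand.
Insig1: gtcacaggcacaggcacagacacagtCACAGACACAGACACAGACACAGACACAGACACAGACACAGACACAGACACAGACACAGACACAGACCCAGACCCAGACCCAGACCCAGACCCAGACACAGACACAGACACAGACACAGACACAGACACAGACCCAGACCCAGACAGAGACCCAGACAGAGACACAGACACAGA
Part of the third region (chr3:92553041-92553140, plus strand, intergenic) is shown because it recurs: 160 distal regions (2.02%) on 20 chromosomes share a word of 30 bases with it, 1 of them marked, and no promoter-proximal peak does.
Recurrent element: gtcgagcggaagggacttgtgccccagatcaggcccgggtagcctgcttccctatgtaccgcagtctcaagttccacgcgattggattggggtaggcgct

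CHD4 of wild-type GMP was found at a larger share of distal regions than of promoter-proximal peaks. It overlapped 2106 distal regions (26.6%, 25.6 to 27.5) and 1148 proximal ones (13.9%), a difference of 12.6 points (11.4 to 13.9). The distal share depends on the peaks taken: it was 42.1% with -log10 q of at least 5 in every list, and 41.0% without sequence features. In *Gfi1*-/- GMP, 729 distal regions (9.20%, 8.58 to 9.85) and 195 proximal peaks (2.37%) overlapped a CHD4 peak, a difference of 6.83 points (6.12 to 7.55), and with that q the distal share was 15.4%. CHD4 lay mostly at marked regions (2064 of the 2106 distal ones in wild type): 52.9% of regions marked in all stages and 49.3% of those marked from preNeu on had CHD4 in wild type, against 1.11% of unmarked regions. In wild type the median CHD4 fold was 10.5 in distal regions against 7.55 at proximal peaks, and in the knockout 6.84 against 6.66. Of the 2106 distal regions with CHD4 in wild type, 722 (34.3%, 32.3 to 36.3) also had a CHD4 peak in the knockout, against 194 of 1148 (16.9%) near promoters. Regions with CHD4 in both genotypes had stronger peaks in wild type, with median folds of 23.7 against 7.92 where it was found in wild type alone. The 42 regions with CHD4 in wild type and no H3K4me2 differed: 27 had CHD4 in the knockout too, with median wild-type folds of 3.34 against 6.52. Only 7 distal regions had CHD4 in the knockout alone. The knockout list is shorter (7316 peaks against 35790), and with 1 library per genotype a loss of binding cannot be told from a weaker experiment. Most CHD4 peaks lay outside open chromatin as listed here: 2287 of 35728 wild-type peaks on the chromosomes (6.40%) were in distal regions, 3.69% in proximal peaks and 89.9% in no ATAC peak. CHD4 was profiled in GMP and the ATAC list is given for preNeu and matNeu, so these shares do not describe open chromatin of GMP. By strength, 4.76% of the weakest of 10 groups of wild-type CHD4 peaks and 12.3% of the strongest lay in distal regions.

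The strongest CHD4 peak in a distal region lay 9.94 kb upstream of *Arhgap15*, a Rac GTPase-activating protein gene (chr2:43738677-43739100, CHD4 fold 94.7 in wild type and 42.2 in the knockout). The region carried H3K4me2 in all stages (3.34, 13.4 and 8.63). *Arhgap15* RNA was 121.6, 125.6 and 129.2 TPM in GMP, 99.9, 111.4 and 127.0 in preNeu, and 208.5, 248.4 and 248.6 in matNeu. Every matNeu library was above every preNeu library, and GMP and preNeu overlapped (matNeu against preNeu log2 change 1.06, adjusted p = 2.86e-05). The second region lay 107.1 kb from *Gpr65*, a proton-sensing receptor gene (chr12:98375472-98375940, 83.3 and 23.7), whose RNA was 76.6, 56.9 and 57.0 TPM in GMP, 24.3, 16.9 and 29.1 in preNeu, and 121.0, 131.9 and 153.0 in matNeu. The other 3 of the top 5 sit at small RNA genes: *Rnu2-10* (chr11:101657998-101658681, 81.5 and 35.7), *Gm24950* (chr11:101641508-101642062, 77.2 and 66.9) and *Rnu3b1* in an intron of *Tex14* (chr11:87442863-87443340, 76.0 and 38.0). The last 2 of these have a near-identical copy elsewhere. The center of the *Arhgap15* region (chr2:43738789-43738988, plus strand, intergenic) is shown because it lies under the strongest CHD4 peak; capitals mark both matches to AAATCA, the core of the GFI1 motif, read on the minus strand.
Arhgap15: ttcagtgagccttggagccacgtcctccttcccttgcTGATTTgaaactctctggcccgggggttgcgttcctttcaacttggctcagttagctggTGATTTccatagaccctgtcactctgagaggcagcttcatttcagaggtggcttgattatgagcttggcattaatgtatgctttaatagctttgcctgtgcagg

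Distal regions were mostly isolated. Joined at the gap commonly used to stitch super-enhancers, they formed 6592 clusters, of which 5691 held 1 region, 673 held 2, 146 held 3, 46 held 4 and 36 held 5 or more. The marked share was 48.5% for single regions, 66.0% in pairs and 26.8% in clusters of 5 or more, where 47.2% of regions matched several places. The largest cluster, 18 regions at chr7:59719870-59806094, follows the repeated small nucleolar RNA genes of *Snhg14*, and a neighbor at chr7:59860173-59900374 held 11 at the *Snord116* genes. Neither held a marked region. The others of the top 5 lay at *Sfi1* (chr11:3102495-3196770, 16 regions, 4 marked), *Asmt* (chrX:170808765-170865934, 15, none marked) and *Tcp10c* (chr17:13360109-13402373, 12, none marked). The fifth place was tied, as clusters nearest *Gpm6a* (chr8:55346349-55387878, none marked) and *Mid1* and *Gm21887* (chrX:169986497-170019066, 3 marked) also held 11 regions. The largest clusters in which every region was marked, a choice made after their values were seen, were of another kind. Those nearest *Ezh2* (chr6:47654843-47685796) and *Pdia4* (chr6:47739786-47772471) held 8 regions each, with up to 14 and 16 near-identical copies, and neither had CHD4. Next came 7 regions at *S100a8* and *S100a9* (chr3:90659420-90692954), which encode the subunits of calprotectin, with unique sequence throughout, folds of 2.88 to 3.85 and CHD4 at 2. A cluster of 6 at the chemokine receptor gene *Ccr1* (chr9:123923366-123942481) had CHD4 at 5, and the clusters of 5 at *Tbc1d2b* (chr9:90232784-90245472), *Plbd1*, *Actb* and *Asprv1* had it at 5, 3, 0 and 0.

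The protein-coding genes nearest to distal regions numbered 4271, of which 4266 were in the RNA table and 2706 (63.4%) passed the filter of 1 TPM in 3 libraries. Genes with a marked region passed more often, 2107 of 2641 (79.8%), than genes with unmarked regions alone, 599 of 1630 (36.8%). RNA was compared with limma on log2(TPM + 1), which understates the change of genes with low TPM, at a Benjamini-Hochberg adjusted p below 0.05 over all 13061 genes tested. The 3 contrasts share libraries and are not independent. In preNeu against GMP, 756 nearest genes (27.9%) were higher and 950 (35.1%) lower, beside 14.7% and 44.3% of all genes tested. In matNeu against preNeu, 1047 (38.7%) were higher and 859 (31.7%) lower, beside 22.9% and 39.8%. In matNeu against GMP, 1126 (41.6%) were higher and 1082 (40.0%) lower, beside 22.8% and 54.1%. The median gene tested shifted by -0.52, -0.32 and -0.92 in these contrasts. With every library scaled to the same median, nearest genes called higher and lower in preNeu against GMP were 1246 (46.0%) and 519 (19.2%), beside 29.3% and 24.2% of all genes. In matNeu against preNeu they were 1527 (56.4%) and 538 (19.9%), beside 42.3% and 24.9%. In matNeu against GMP they were 1702 (62.9%) and 576 (21.3%), beside 46.1% and 31.1%. Under both scalings the nearest genes were called higher more often than all genes. In bulk RNA, fewer cells of a type and less RNA per cell cannot be told apart.

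Relative to all genes, nearest genes moved up along the lineage, and those with marked regions lay above those with unmarked regions alone. The median change of nearest genes exceeded that of all genes by 0.39 in preNeu against GMP, 0.43 in matNeu against preNeu and 0.97 in matNeu against GMP. For genes with a marked region the excess was 0.54, 0.67 and 1.51, and for genes with unmarked regions alone it was -0.19, -0.20 and -0.59. The number of marked regions went with the size of the change. In matNeu against GMP, 43.1% of genes with 1 marked region were higher and 38.6% lower, and 71.0% of genes with 3 or more were higher and 14.2% lower, with median changes of 0.14 and 1.65. With the same median per library these were 64.7% higher and 20.1% lower, and 87.7% and 7.57%. Protein-coding genes with 0 distal regions had a median of -1.30, with 16.9% higher and 62.4% lower, or 39.8% and 36.7% with the same median, so their direction depends on scaling. Nearest genes of regions with CHD4 in wild type had a median of 0.77, and those of marked regions without it 0.23. By library, the median log2(TPM + 1) of tested nearest genes was 4.43, 4.46 and 4.46 in GMP, 4.18, 4.31 and 4.41 in preNeu, and 4.28, 4.26 and 4.37 in matNeu. Over all genes tested it went from 4.45, 4.53 and 4.51 through 3.76, 3.88 and 3.95 to 3.13, 3.03 and 3.14. Every preNeu and matNeu library thus had a lower median of nearest genes than every GMP library, by less than over all genes. With the same median per library, the median change of nearest genes was 0.50, 0.87 and 1.44, beside 0.11, 0.45 and 0.47 of all genes.

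The 5 nearest genes that rose most from GMP to preNeu encode granule or calcium-binding proteins of neutrophils, and their distal regions were marked from preNeu on or in all stages. *Ngp*, a secondary granule gene, had 12.7, 10.5 and 9.18 TPM in GMP, 82700, 73690 and 57800 in preNeu and 2075, 3245 and 1529 in matNeu. All preNeu libraries were far above all others, and matNeu stayed above GMP (preNeu against GMP 12.56, adjusted p = 1.38e-10). Its strongest region, 4.27 kb upstream (chr9:110415229-110415725, fold 4.79), carried the mark in preNeu (10.7) and matNeu (8.50) and had no CHD4. *Camp* (0.653 to 1.99 TPM in GMP) reached 12040, 9316 and 9261 TPM in preNeu and fell to 125.8, 102.5 and 50.3 in matNeu, so that the 3 stages did not overlap (12.02, adjusted p = 1.69e-09, then -6.85, 2.59e-08). *Ltf*, which encodes lactoferrin, went from 7.94, 6.23 and 4.22 TPM in GMP to 23920, 24640 and 27600 in preNeu (11.83, 9.12e-11), with 400.2, 578.1 and 423.1 in matNeu. *S100a9* had 3.83, 5.48 and 4.27 TPM in GMP, 18830, 14650 and 16580 in preNeu and 17350, 11470 and 8880 in matNeu. Unlike *Ngp*, it stayed high in matNeu, where one library overlapped the preNeu range (preNeu against GMP 11.56, adjusted p = 1.18e-10, and matNeu against GMP 11.11, 8.34e-11). *S100a8* behaved in the same way (9.71, 3.55e-09), with 22.1, 44.4 and 28.9 TPM in GMP against 29350, 24050 and 25920 in preNeu. The centers of the strongest *Ngp* region (chr9:110415377-110415576) and *S100a9* region (chr3:90686884-90687083), both intergenic and given on the plus strand, are shown as regions of strongly rising genes with H3K4me2 in preNeu and matNeu and not in GMP. Capitals mark matches to the CEBP motif TTNNGCAA and, for *Ngp*, to the RUNX motif TGTGGT.
Ngp: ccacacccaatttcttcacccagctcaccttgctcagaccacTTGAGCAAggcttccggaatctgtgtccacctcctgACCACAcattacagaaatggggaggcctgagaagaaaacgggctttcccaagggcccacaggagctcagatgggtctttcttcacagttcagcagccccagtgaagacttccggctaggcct
S100a9: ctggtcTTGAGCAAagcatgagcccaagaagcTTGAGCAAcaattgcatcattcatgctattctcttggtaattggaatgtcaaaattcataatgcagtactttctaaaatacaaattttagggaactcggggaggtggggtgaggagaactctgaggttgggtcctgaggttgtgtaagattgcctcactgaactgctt

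The 5 nearest genes that fell most from GMP to preNeu were *Cd34*, *Bex6*, *F13a1*, *Ly86* and *Ccr2*. *Cd34*, a progenitor surface protein gene, had 498.2, 485.9 and 425.4 TPM in GMP, 1.23, 3.27 and 2.13 in preNeu and 1.84, 2.35 and 1.56 in matNeu. GMP was above all other libraries, and the later stages overlapped (preNeu against GMP -7.25, adjusted p = 8.2e-09, and matNeu against GMP -7.34, 1.2e-09). Its 3 distal regions nevertheless all carried H3K4me2, and the strongest, 37.9 kb downstream (chr1:194976241-194977535, fold 5.68), had the mark at fold 4.11 in GMP, 12.4 in preNeu and 8.18 in matNeu and no CHD4. The next 4 were *Bex6* (-6.58, adjusted p = 1.39e-07), *F13a1* (-6.05, 2.04e-07), *Ly86* (-5.10, 8.66e-08) and *Ccr2*, a monocyte chemokine receptor gene (-4.84, 4.48e-07), each lower in all 3 preNeu libraries than in all 3 GMP libraries. Each had at least 1 marked region. The center of the *Cd34* region (chr1:194976788-194976987, plus strand, at the non-coding gene *A330023F24Rik*) is shown because it was marked in the stages where *Cd34* RNA was lowest; capitals mark a RUNX match.
Cd34: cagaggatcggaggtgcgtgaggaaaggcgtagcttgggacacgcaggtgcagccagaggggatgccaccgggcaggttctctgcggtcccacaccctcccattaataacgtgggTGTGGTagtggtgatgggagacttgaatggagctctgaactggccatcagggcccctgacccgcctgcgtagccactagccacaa

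The nearest genes with the largest rises from preNeu to matNeu included *Il1b*, *Clec4d* and *Ccl6*, and *Fcnb*, *Gatm*, *Nuf2*, *Nusap1* and *Camp* fell most. *Il1b*, the interleukin-1 beta gene, had 0.577, 1.10 and 2.36 TPM in GMP, 0.119, 0.526 and 0.471 in preNeu and 1908, 1342 and 2236 in matNeu. It was near 0 in both earlier stages and high in every matNeu library (10.36, adjusted p = 1.24e-09). All 4 of its distal regions were marked in preNeu, and the strongest, 2.38 kb upstream (chr2:129373303-129373738, fold 5.33), had the mark at 3.14 in preNeu and 4.24 in matNeu, with CHD4 at 6.89 in wild type. It overlaps the antisense gene *Il1bos*. *Clec4d* (9.38, 1.2e-09) went from 2.61, 0.992 and 2.91 TPM in preNeu to 1946, 2104 and 2022 in matNeu, and *Ccl6* (9.26, 4.2e-11) from 8.33, 9.12 and 10.4 to 6637, 6572 and 5663. For both, no matNeu library came near the earlier stages. *H2-Q10* (7.91, 3.13e-10) was also higher in all 3 matNeu libraries. Downward, *Fcnb*, a ficolin gene of granules, went from 4049, 3902 and 3532 TPM in preNeu to 5.17, 6.85 and 5.68 in matNeu, below GMP at 34.6, 34.3 and 42.2 (-9.12, 4.2e-11). Its strongest region (chr2:28092097-28092529, fold 3.40) was marked in all stages (2.70, 10.9 and 6.46) with CHD4 at 47.2 in wild type and 13.3 in the knockout. *Gatm* (-7.56, 3.74e-10) and the mitotic genes *Nuf2* (-6.93, 7.11e-10) and *Nusap1* (-6.87, 1.04e-09) were also lower in all 3 matNeu libraries. The center of the *Il1b* region (chr2:129373421-129373620, plus strand) is shown because the region was marked in preNeu, where the RNA was near 0. Capitals mark SPI1 (GAGGAAGT), AP-1 (TGANTCA) and IRF (AANNGAAA) matches.
Il1b: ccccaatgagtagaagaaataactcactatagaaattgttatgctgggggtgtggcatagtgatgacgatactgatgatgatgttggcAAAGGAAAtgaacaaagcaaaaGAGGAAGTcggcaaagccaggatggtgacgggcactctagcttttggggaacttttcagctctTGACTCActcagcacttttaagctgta

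Over the whole path, the largest rises in matNeu against GMP were those of *Retnlg* and *Mmp9*. *Retnlg*, which encodes a resistin-like protein, had 0, 2.03 and 0.927 TPM in GMP, 99.7, 97.5 and 104.5 in preNeu and 12530, 10880 and 6505 in matNeu, rising at each step without overlap (12.38, adjusted p = 4.49e-10). *Mmp9*, a gelatinase gene, rose in the same way from 0.852, 0.870 and 1.30 TPM through 358.9, 458.8 and 386.6 to 6334, 6594 and 6688 (11.68, 3.4e-12). The *Mmp9* region lies in its own intron 2.44 kb from the TSS (chr2:164942940-164943495, fold 4.12), was marked in preNeu (10.5) and matNeu (9.60) and had no CHD4. Both *Retnlg* regions were marked from preNeu on and had CHD4. *Slfn1* (10.20, 1.39e-11) and *Il1r2*, a decoy receptor gene (10.10, 1.06e-08), also rose, the latter from 1.50, 4.80 and 0 TPM through 123.9, 164.4 and 165.1 to 2774, 2474 and 2774. The largest fall was that of *Myc*, from 385.7, 462.5 and 437.8 TPM in GMP through 17.2, 26.3 and 31.4 to 0.0890, 0.468 and 0.349 (-8.37, 3.65e-10). Its single distal region lay 143.3 kb away and was unmarked. *Cst7* fell from 404.4, 366.5 and 414.8 TPM through 80.5, 79.3 and 79.3 to 0, 1.94 and 0.193 (-8.03, 3.88e-09), and *F13a1* (-7.88, 4.06e-09) and *Gatm* (-7.41, 1.74e-10) fell as well. In each of these, the GMP libraries stood wholly apart from matNeu. The windows of *Retnlg* (chr16:48868758-48868957, intergenic) and *Mmp9* (chr2:164943118-164943317, intron), plus strand, are shown as the regions beside the largest rises; capitals mark SPI1 and, in *Retnlg*, CEBP matches.
Retnlg: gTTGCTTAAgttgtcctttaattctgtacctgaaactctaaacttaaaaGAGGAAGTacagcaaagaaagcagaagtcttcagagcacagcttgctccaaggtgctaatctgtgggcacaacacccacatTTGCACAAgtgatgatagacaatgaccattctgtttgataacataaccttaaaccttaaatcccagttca
Mmp9: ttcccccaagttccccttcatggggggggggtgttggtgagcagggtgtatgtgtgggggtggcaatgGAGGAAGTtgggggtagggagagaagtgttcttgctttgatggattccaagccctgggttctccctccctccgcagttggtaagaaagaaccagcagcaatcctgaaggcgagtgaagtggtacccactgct

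Gene lists of neutrophil function differed in how many distal regions they had. Over all 21938 protein-coding genes 4271 (19.5%) were nearest to a distal region, and of all distal regions 52.1% were marked in some stage and 26.6% had CHD4 in wild type. Of 8 primary granule genes 3 were nearest to a distal region, with 6 regions, all marked. Secondary granule genes had 4 of 11 with 5 regions, 4 marked, each in preNeu and matNeu but not GMP and none with CHD4, and tertiary granule genes 5 of 8 with 6 regions, 4 marked. Chemoattractant receptors (9 of 13 genes, 21 regions) and adhesion genes (7 of 12, 21 regions) had all their regions marked, with CHD4 in wild type at 16 and 14. Myeloid transcription factors had 57 regions at 22 of 35 genes, 51 marked and 26 with CHD4, and inflammatory genes 38 regions at 16 of 25 genes, 37 marked and 18 with CHD4. Actin and migration genes had 22 regions at 12 of 18 genes, 21 marked and 13 with CHD4. Cell cycle genes had 2 regions at 2 of 18 genes, both marked in all stages.

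Calls among list members nearest to distal regions stand beside those of all tested nearest genes: 27.9% higher and 35.1% lower in preNeu against GMP, 38.7% and 31.7% in matNeu against preNeu, and 41.6% and 40.0% in matNeu against GMP. Some whole lists, with or without distal regions, moved in the same way as these members, and others did not. For whole lists, the shares over all genes tested were 22.8% higher and 54.1% lower in matNeu against GMP, and 22.9% and 39.8% in matNeu against preNeu. With the same median per library they were 46.1% and 31.1%, and 42.3% and 24.9%. In matNeu against GMP 11 of 11 secondary granule and 25 of 25 inflammatory genes were higher, and 18 of 18 cell cycle genes lower. Of the whole tertiary granule list 5 were higher and 2 lower in that contrast, against 2 and 2 near distal regions. Of the whole primary granule list 1 was higher and 6 lower in matNeu against preNeu, against 1 and 1. All 4 secondary granule genes rose in preNeu against GMP (median 11.93) and all 4 fell in matNeu against preNeu (-5.40). Of 16 inflammatory genes, 13 rose and none fell in matNeu against preNeu (2.32), and all 16 rose in matNeu against GMP (5.70). Of 9 chemoattractant receptors, 7 rose and 1 fell in matNeu against GMP (4.82), and of 7 adhesion genes 6 rose and none fell (2.69). Of the 12 actin and migration genes, 11 rose in the same contrast (1.77). Of the 22 transcription factors, 7 rose and 9 fell in preNeu against GMP, and 14 rose and 4 fell in matNeu against preNeu (1.85). For these factors scaling matters in the first step, where 11 rose and 7 fell with the same median per library. All 3 primary granule genes fell in preNeu against GMP, and in matNeu against GMP 1 rose and 2 fell; 4 of the 5 tertiary granule genes were tested, of which 3 rose in the first step. Both cell cycle genes fell in matNeu against preNeu (-5.92).

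Single genes of these lists show how regions and RNA lay together. *Srgn*, a proteoglycan gene of granules, had 4 regions, the strongest 16.1 kb away (chr10:62543064-62544028, fold 5.07, CHD4 22.8 and 6.33 in wild type and knockout). Its RNA was 1726, 1318 and 1571 TPM in GMP, 490.4, 461.0 and 392.3 in preNeu and 3458, 3295 and 3138 in matNeu, lowest in the middle stage without overlap (-1.78, adjusted p = 1.36e-06, then 2.88, 1.33e-08). *Ccr1* had 7 regions, all marked and 6 with CHD4. *Cd44*, the hyaluronan receptor gene, had 8 regions, all marked, and 146.2, 133.8 and 128.8 TPM in GMP, 222.4, 230.5 and 292.6 in preNeu and 755.5, 753.6 and 937.0 in matNeu, rising at each step (matNeu against GMP 2.57, 2.7e-08). *Cd9*, a tetraspanin gene, had 6 regions, the strongest at chr6:125445339-125445813 (fold 5.99, CHD4 23.8 and 8.88), and rose from 65.1, 51.4 and 74.95 TPM through 873.6, 788.6 and 730.8 to 1254, 1371 and 1203 (4.32, 9.74e-10). *Itgb2*, the common beta chain of leukocyte integrins, had an intronic region marked from preNeu on (chr10:77550186-77551353, fold 5.92, CHD4 6.49) and rose from 54.7, 35.4 and 44.9 TPM through 970.2, 1052 and 1129 to 1859, 1997 and 2048 (5.44, 3.27e-10). In all 3 of these genes the stages did not overlap. *Zeb2* had the most regions of any list gene (10, of which 6 were marked) but moved the other way. Its RNA went from 159.6, 142.0 and 134.4 TPM in GMP to 4.59, 6.78 and 7.41 in preNeu (preNeu against GMP -4.35, 8.8e-08). In matNeu it partly returned, to 35.2, 25.03 and 36.1.

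The regions of *Cxcr2* and *Csf3r* were marked in each stage, as lists of their own length show it, and the RNA of both was highest in matNeu. *Cxcr2* had a region 13.3 kb away marked in all stages (chr1:74167006-74167479, fold 5.34), and 8.17, 7.65 and 11.9 TPM in GMP, 64.7, 93.4 and 70.9 in preNeu and 3027, 3400 and 3976 in matNeu (matNeu against preNeu 5.50, adjusted p = 3.16e-09). The receptor gene of granulocyte colony-stimulating factor, *Csf3r*, had a region 6.60 kb upstream marked in all stages (chr4:126017507-126018403, fold 4.79, CHD4 5.89) and rose from 191.0, 201.2 and 225.2 TPM in preNeu to 3946, 3340 and 4336 in matNeu (4.22, 1.12e-09). For both genes the matNeu libraries were far above all others. *Cxcr4*, which retains neutrophils in marrow, differed: its strongest region lay 120.7 kb away (chr1:128712678-128713266, fold 5.57) and its RNA was at 49.2, 58.7 and 55.7 TPM in GMP, 38.6, 40.4 and 44.7 in preNeu and 48.1, 43.2 and 53.3 in matNeu, the last overlapping both earlier stages. Among transcription factors, *Fos* had a region 5.02 kb upstream marked in all stages (chr12:85468650-85469085, fold 5.88, CHD4 9.11) and rose from 52.5, 47.7 and 88.9 TPM in preNeu to 1188, 1128 and 2476 in matNeu (4.60, 3.36e-07). *Ets2* had 6 regions and rose from 6.71, 11.5 and 12.2 TPM in GMP through 15.4, 22.5 and 20.2 to 101.6, 83.6 and 116.6 (matNeu against GMP 3.22, 3.94e-07). Of the inflammatory genes, *Alox5ap*, needed for leukotriene synthesis, had 4 regions, the strongest marked in all stages (chr5:149246075-149246464, 3.20, 14.8 and 7.99), and rose from 301.2, 245.1 and 266.8 TPM through 798.2, 686.5 and 545.7 to 2347, 2695 and 2610 (3.23, 7.18e-09). The cell cycle gene *Mki67* had a region 19.8 kb away (chr7:135735754-135736584, fold 3.84) marked in all stages, although its RNA fell from 186.1, 193.5 and 238.4 TPM in preNeu to 4.73, 3.30 and 5.56 in matNeu (-5.24, 3.42e-09).

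Of the 10 genes with the most distal regions, 4 passed the expression filter (*St6galnac3*, *Zfp386*, *Adgrl2* and *Sfi1*). Over all genes with 3 or more distal regions 64.4% passed, and of those with 1 region 62.2%. *Gm38393* (29 regions), *Tcp10c* (27), *Cdh4* (26), *St6galnac3* (23) and *Asmt* (21) had 0, 2, 1, 1 and 0 marked regions. *Adgrl2* (18), *Ajap1* (17), *Sfi1* (16) and *Brinp3* (15) had 5, 0, 4 and 1. *Tcp10c*, *Asmt*, *Ajap1* and *Brinp3* were listed at 0 TPM in all 9 libraries, while *Sfi1* had 34.4, 36.2 and 33.1 TPM in GMP, 21.7, 22.7 and 14.6 in preNeu and 44.4, 37.5 and 48.1 in matNeu. *Zfp386* differed from these, with 20 of 22 regions marked. Ranked by marked regions instead, a choice made after the values were seen, the next were *Zfp36l2* (10 of 10), *Chd7*, *Thbs1*, *Trib1* and *Pdia4* (9 of 9 each) and *Gm5426* (9 of 10, listed at 0 TPM throughout). *Zfp36l2* had 36.7, 54.3 and 85.6 TPM in GMP, 22.6, 24.2 and 31.4 in preNeu and 92.3, 101.2 and 169.6 in matNeu, lowest in the middle stage. *Chd7* went from 10.6, 17.9 and 14.3 TPM in GMP through 28.4, 48.4 and 40.0 to 66.4, 76.0 and 97.9 (2.42, adjusted p = 4.83e-06). *Thbs1*, with CHD4 at all 9 of its regions, went from 1.02, 0 and 2.53 through 11.9, 13.3 and 26.4 to 219.0, 168.7 and 336.4 (6.92, 1.34e-07). *Trib1* (5.84, 6.3e-09) was likewise highest in every matNeu library. *Pdia4*, whose regions mostly had near-identical copies and had no CHD4, went the other way, from 457.1, 479.9 and 454.3 TPM to 63.9, 48.0 and 71.6 and then 1.82, 4.39 and 4.29 (-6.75, 1.96e-09).

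The 22 regions nearest *Zfp386* lie over 1.03 Mb of the immunoglobulin heavy-chain variable locus (chr12:114932346-115964103), and their details were looked at after these values were seen. Their ATAC folds were modest (2.80 to 4.04), but 20 were marked, 11 in all stages and 9 from preNeu on, and 19 had CHD4 in wild type, 12 of these in the knockout too. The median CHD4 fold was 12.9 in wild type and 7.20 in the knockout. Of these regions 17 lay within 250 bp of a variable segment, and all 17 had both the mark and CHD4. Over the whole span of 194 annotated segments, 19 distal regions lay near a segment, and 16 of them covered its 3′ end, the side on which the recombination signal lies. RNA of the variable segments, summed over 185 genes, was 19.3, 13.2 and 14.7 TPM in GMP, 418.9, 492.8 and 445.4 in preNeu and 672.1, 761.0 and 345.7 in matNeu. The 19 segments near a distal region made 4.15, 8.63 and 8.36 TPM of this in GMP, 287.9, 270.9 and 289.7 in preNeu and 413.6, 456.9 and 133.1 in matNeu. The other 166 made 15.2, 4.56 and 6.30, then 131.0, 222.0 and 155.7, then 258.6, 304.1 and 212.6, more than the 19 in 1 GMP and 1 matNeu library. The most abundant over the 9 libraries, *Ighv1-41*, had 2.19, 4.18 and 0 TPM in GMP, 143.2, 84.3 and 112.3 in preNeu and 54.8, 86.8 and 12.1 in matNeu, lowest in GMP with the later stages overlapping, and *Ighv1-52* exceeded it in every matNeu library (109.0, 101.3 and 27.8). Beside these, *Ighm* was at 563.4, 461.1 and 491.5, 242.4, 278.6 and 278.7, and 544.8, 557.0 and 612.3 TPM, and *Cd79b* at 93.7, 77.8 and 87.7, 17.3, 27.4 and 18.5, and 27.3, 25.1 and 53.9. Other B-cell genes were, like the segments, lowest in GMP, but not in the same order within matNeu. *Igkc* was listed at 0 in GMP and had 21.1, 30.9 and 29.2 TPM in preNeu and 52.3, 206.5 and 127.5 in matNeu, and *Cd79a* had 0.207, 0.603 and 0, then 5.68, 8.58 and 6.69, then 16.2, 18.6 and 33.1. *Jchain* had 0, 0.296 and 0.104, then 1.77, 4.74 and 2.74, then 0.720, 12.9 and 1.29. Variable segments are close paralogs between which reads may be split, 5 of the 22 regions have several copies, and a share of B cells in the sorted cells was not tested. The region with the strongest CHD4 peak here (fold 40.3 and 12.4) is shown for this reason, chr12:115119585-115119784, plus strand, with a RUNX match in capitals. It was classed as intergenic by its midpoint and matched 2 places in the genome, and its likeness to a variable segment was not tested.
Zfp386: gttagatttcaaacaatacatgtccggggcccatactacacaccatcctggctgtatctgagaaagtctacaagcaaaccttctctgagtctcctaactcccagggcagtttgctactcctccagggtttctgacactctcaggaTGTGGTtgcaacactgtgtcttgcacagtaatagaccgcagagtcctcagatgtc

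Of the loci the study discusses, 5 were looked at for distal regions within 50 kb. *Plbd1* had 5, among them chr6:136675051-136675296 (fold 4.07, marked from preNeu on), chr6:136683604-136684167 (5.06, all stages, CHD4 11.2) and chr6:136689970-136690259 (3.58, all stages, CHD4 27.9 and 9.99 in wild type and knockout). *Mmp8* had 2: one in a coding exon (chr9:7567388-7567609, fold 4.54), marked in preNeu (4.90) and matNeu (7.10) with CHD4 at 26.5 and 6.94, and one at chr9:7593555-7593789 (3.49) with CHD4 at 12.1 and 4.44. For both the nearest TSS is that of *Mmp27*. *Mmp8*, a collagenase gene of granules, had 10.1, 5.07 and 8.56 TPM in GMP, 174.0, 206.5 and 233.6 in preNeu and 5831, 7533 and 6443 in matNeu, so its RNA was far higher in the last stage. *Fcgr4* had 3, of which chr1:170998223-170998513 (3.92) was marked in all stages with CHD4 at 15.3. *Cd34* had 1, described above, and *Cfp* had 0.

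Markers of the sorted stages and of other cells were read in the same libraries. Of the stage markers, 4 of 9 GMP genes (8 regions, 5 marked), 5 of 8 preNeu genes (7, all marked) and 8 of 10 matNeu genes (13, all marked) were nearest to a distal region. These lists hold genes of proteins used for sorting, such as *Cd34*, *Kit* and *Cxcr2*, and were chosen with earlier results known, so their order over the stages is no independent check. GMP markers, led by *Mpo*, made 45480, 45800 and 47390 TPM in GMP, 8365, 9414 and 9297 in preNeu and 15.3, 41.1 and 18.1 in matNeu. The preNeu markers, led by *Ngp*, made 218.1, 202.8 and 219.5, then 175700, 158200 and 149400, then 5694, 6857 and 4575. The matNeu markers, led by *Retnlg*, made 885.1, 755.8 and 764.7, then 1294, 1476 and 1530, then 43990, 43530 and 40100. Each list was highest in the stage it names. Of the markers of other cells, beside 19.5% of all protein-coding genes, B-cell genes had 1 of 8 nearest to a distal region (*Ebf1*, 2 unmarked regions), T and NK cell genes 1 of 10 (*Klrb1c*, 4 marked), megakaryocyte genes 1 of 6 (*Gp9*, 1 marked), monocyte and macrophage genes 5 of 13 (6 regions, 4 marked), and basophil, mast cell and eosinophil genes 0 of 10. Their summed levels in the 9 libraries, in the order GMP, preNeu and matNeu, were 657.9, 540.5, 579.7, 270.2, 327.4, 326.4, 607.7, 633.9 and 749.5 TPM for B cells (mostly *Ighm*) and 471.1, 556.7, 619.3, 254.4, 232.4, 222.6, 16.97, 17.8 and 14.1 for T and NK cells (mostly *Nkg7*). Erythroid markers, led by *Hba-a2*, were at 28.6, 23.6, 36.3, 20.6, 29.8, 37.9, 8.15, 32.5 and 30.4, and megakaryocyte markers, led by *Itga2b*, at 37.8, 53.8, 53.5, 5.96, 10, 8.41, 8.29, 7.65 and 5.53. Among the T and NK cell markers 4, and among the megakaryocyte markers 1, stayed under 1 TPM in every library. Monocyte and macrophage markers, led by *Ly6c2*, were at 5229, 4381, 4786, 2337, 1966, 1835, 1615, 1795 and 1427, and those of basophils, mast cells and eosinophils, led by *Prg2*, at 1668, 1716, 1515, 535.1, 349.1, 437.0, 48.3, 46.6 and 54.7. The lists of T and NK cells, of megakaryocytes, of monocytes and macrophages, and of basophils, mast cells and eosinophils were thus highest in GMP.

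Short motifs of myeloid factors were counted in the central 200 bp of each region on both strands, with overlapping matches, beside all 12796535 tiles of 200 bp of the genome. A match describes the sequence and not the binding of a factor. The SPI1 motif GAGGAAGT was in 4.87% of distal regions and 1.19% of tiles, and it went with the mark: 8.64% of marked and 0.764% of unmarked regions had it, and 10.3% of those with CHD4 in wild type. By ATAC fold its share went from 1.01% in the weakest of the 10 groups to 8.46% in the strongest. CEBP (TTNNGCAA) was in 12.9% of distal regions and 9.35% of tiles, with 19.8% of regions marked from preNeu on against 12.8% of those marked in all stages. RUNX (TGTGGT) was in 19.1% and 13.8%, and AP-1 (TGANTCA) in 6.14% and 5.93%, the latter reaching 9.08% of marked regions. The GC box GGGCGG of KLF and SP factors was in 8.16% and 1.96%, in 16.6% of regions marked in all stages and 4.12% of those marked from preNeu on, against 53.4% near promoters. Motifs rich in A and T were less common than in tiles: AAATCA (GFI1) in 8.48% against 17.8%, AANNGAAA (IRF) in 13.8% against 27.1%, the motif of GATA factors (AGATAA) in 5.98% against 13.3% and TTCNNNGAA (STAT) in 4.49% against 7.43%. The GFI1 and IRF motifs were more common, at 12.1% and 25.8%, where CHD4 was present in both genotypes. The partial CTCF motif AGGGGGCGC was rare, in 0.126% of regions and 0.0386% of tiles. Base composition differs between these sets and moves with such shares, which was not tested.

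The nearest TSS need not be the target of a region, and peak lists give no sequencing depth. With 1 ATAC list of unsettled stage, none of these comparisons says when a distal region opened.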

How the data were processed

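The authors' processing notes name FastQC 0.11.5, MultiQC 1.6, Trimmomatic 0.36, BWA 0.7.17, MACS2 2.1.0 and kallisto 0.44.0, and no step that shifts ATAC reads is named. Deposited peak lists hold the peak caller's fold (a ratio to background) and -log10 q. Deposited RNA values are TPM for 34896 genes, 34845 with an ID in GENCODE M21, and 0 value columns were left unused. Depth is unknown, since neither TPM nor peak lists keep it. The labels' cell type field differs from the title in 13 of 18 samples, and all groups follow the titles. GFI1 and H3K4me3 lists were left out, as 3105 of 26963 and 2179 of 20218 peaks lie beyond GRCm38 chromosome ends. Overlap meant 1 shared bp. Copies were found with minimap2 2.31 (98% identity, 90% coverage) and mitochondrial likeness with blastn 2.17.0 (E below 1e-10). Shares have 95% Wilson intervals and their differences Newcombe intervals, with Python 3.11.15, numpy 2.4.6, pandas 2.3.3, scipy 1.17.1, pysam 0.24.0 and samtools 1.23.1. RNA was compared in R 4.3.3 with limma 3.58.1 (trend, 9 libraries, cell type alone), a step tested on simulated data. A permutation of 3 against 3 libraries cannot go below p = 0.1, so small p rest on the limma model. Named regions were the 10 of highest ATAC fold, 5 of highest CHD4 fold, 2 per H3K4me2 pattern, 5 largest clusters and up to 3 per gene list. Named genes were the 10 with most regions, the 5 of largest change each way per contrast, list members and 5 study loci. Some items that this rule names are not reported here. Lists were of granule, receptor, adhesion, transcription factor, inflammatory, actin, cell cycle, NuRD and cell type marker genes. Members and lists were chosen with earlier results of these data known.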

Additional observations from a re-analysis of the deposited data

How the results depend on the processing

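Over 31 alternatives, 867 values for 51 changes of named genes kept their direction and their side of the threshold, and 149 of 183 values of shares, counts and motifs stayed within the interval or 1.5 times. The others follow, and the cause was not tested. The share of distal regions with H3K4me2 in GMP, preNeu and matNeu was 28.5, 51.8 and 52.7% beyond 1 kb, 24.8, 46.8 and 47.8% beyond 5 kb, and 24.7, 48.7 and 49.5% with the TSS of every gene. With -log10 q of at least 5 in every list, 1370 regions remained, with 6.93, 75.3 and 70.8% and with CHD4 at 42.1% in wild type and 15.4% in the knockout. With overlap of 50% of the shorter peak, H3K4me2 of GMP was at 23.6% and CHD4 at 25.1 and 8.46%. At the same length covered, preNeu was at 23.0% and matNeu at 29.6%. Without sequence features, an alternative added after seeing the data, 4943 regions had shares of 41.7, 77.8 and 78.1%, and CHD4 at 41.0 and 13.7%. With the same median per library, nearest genes higher and lower were 1246 and 519 in preNeu against GMP and 1702 and 576 in matNeu against GMP, and 538 were lower in matNeu against preNeu. Quantile normalization gave 578 lower in preNeu against GMP. Nearest genes of regions with H3K4me2, also added after seeing the data, held 695 lower in matNeu against GMP. In windows of 100 bp the RUNX share was 1.62 times that of tiles, against 1.38 in 200 bp. Leaving out each library in turn gave 687 to 759 higher and 823 to 974 lower in preNeu against GMP, 951 to 1042 and 793 to 863 in matNeu against preNeu, and 1086 to 1127 and 1036 to 1083 in matNeu against GMP. Replicate numbers do not pair the libraries (correlations of the same number -0.0394 to 0.123), and a replicate block changed no call of a named gene, with counts of 755 and 941, 1043 and 849, and 1124 and 1079.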

Other observations

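Of 16 genes of the NuRD complex and its cofactors, 5 were nearest to a distal region, beside 19.5% of all protein-coding genes, with 6 regions, 4 marked with H3K4me2 and 1 with CHD4. Of these 5 genes, 2 rose and 1 fell in preNeu against GMP, and 2 rose and 2 fell in matNeu against preNeu, beside 27.9% and 35.1%, then 38.7% and 31.7%, of all tested nearest genes. *Mta3*, a NuRD subunit gene, had 27.9, 35.4 and 25.4 TPM in GMP, 6.28, 6.997 and 8.77 in preNeu and 20.7, 23.2 and 29.4 in matNeu, lowest in the middle stage. *Gfi1* RNA itself was at 8.01, 5.89 and 17.5 TPM in GMP, 20.1, 23.2 and 29.2 in preNeu and 0, 0 and 0.145 in matNeu (matNeu against preNeu -4.57, adjusted p = 9.26e-07), so the RNA was highest in preNeu and nearly absent in matNeu. The protein had another order in the study, which reports more GFI1 in matNeu than in preNeu by western blot.

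Distal regions with many near-identical copies were uneven over the chromosomes, a pattern looked at after its values were seen. Of 793 regions matching at least 50 places, 646 (81.5%) lay on chromosomes 1, 10, 11, 12 and 13, the first 5 in alphabetical order, which hold 25.3% of the length and 29.5% of the distal regions without a sequence feature. Chromosome 1 alone held 264. Mitochondrial-like sequence was found in 5 distal regions and 0 promoter-proximal peaks. One of them, in an intron of *Myo3a* (chr2:22587399-22590189, fold 8.12), was 97.5% identical to mitochondrial DNA and marked in matNeu alone. Neither pattern was tested further.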
